A study of Mus musculus with 6 samples.

Results

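Solute carriers are the membrane proteins that move nutrients, ions, metals, vitamins and metabolites across the plasma membrane and across the membranes of mitochondria, lysosomes and the Golgi. The members described here are the genes whose symbol begins with Slc, a family number, a letter and a member number, and that had a probe set with exactly 1 gene symbol in the platform annotation. This symbol rule used no measured value of the comparison and found 233 of the 12780 genes that could be compared, in 49 Slc families. Which genes could be compared may depend on signal: the deposited table holds no probe set with both group geometric means under 20.001. Of the 233, 5 (Slc9a3r1, Slc9a3r2, Slc4a1ap, Slc7a6os and Slc2a4rg-ps) are named after a carrier and are not carriers themselves. RefSeq lists 373 protein-coding mouse genes under the same rule, of which 231 were measured here, and the rest were not analysed here. Among carriers well known in immune cells, Slc16a1, Slc11a1, Slc40a1 and Slc9a9 were thus not analysed here.

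Dendritic cells are known to alter nutrient uptake when they are activated. Glucose enters through the GLUT proteins of family 2, lactate leaves through the monocarboxylate transporters of family 16, and essential amino acids enter through heterodimers of the heavy chain CD98 (Slc3a2) with a light chain of family 7. Families 15, 29 and 46 include proteins of endosomes and lysosomes that carry peptides or nucleosides out of the compartments where nucleic acid sensors work, and family 25 serves the inner mitochondrial membrane.

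RNA was measured on Affymetrix arrays in type 1 conventional dendritic cells (cDC1), which present antigen from other cells to CD8 T cells. The cells were wild-type C57BL/6 mouse cells of the migratory kind, sorted from lymph nodes that drain the skin by XCR1, CD40, high MHC II and intermediate CD11c, and by lack of B220, CD326 and Sirpa. All cells of both groups had passed the CD40 gate. There were 3 unstimulated samples and 3 stimulated with an antibody against CD40, the receptor through which helper T cells act on dendritic cells. The sources used here do not give the age or sex of the mice, nor the dose, time and route of the antibody. The labels call the samples biological replicates but name no animals, so the p-values rest on the spread among these 6 arrays, some of which may be technical.

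The arrays of 1 group correlated across genes with r between 0.915 and 0.958, and their interquartile range of log2 intensity ran from 1.74 to 2.31, with the arrays numbered 1 widest in both groups. Of 13 listed cDC1 markers 11 were measured, 7 with positive and 4 with negative differences (median 0.18). Irf8 and Batf3 had log2 intensities of 10.20 to 12.38 and 8.55 to 10.19, whereas Xcr1, on which the cells were sorted, lay between 4.21 and 4.91. Itgae (4.62 to 5.11) and Wdfy4 (4.50 to 5.18) were also dim. Cd24a had the largest statistic of the list and was lower on every stimulated array (-0.48, 95% interval -0.84 to -0.11, limma unadjusted p = 0.0177). It did not pass over all genes. Of the markers of other cells, 5 of 9 listed for T cells were measured, all 5 with positive differences (median log2 difference 0.43) and summed intensities of 137.1 to 227.9 in unstimulated and 158.2 to 298.3 in stimulated samples. For B cells 3 of 8 markers were measured, with summed intensities of 96.48 to 161.7 and 89.59 to 138.5. Epcam, which encodes the CD326 that the sorted cells were to lack, was at 4.71, 4.60 and 4.90 without and 5.36, 5.51 and 5.06 with stimulation, without overlap (0.57, 95% interval 0.13 to 1.01, limma unadjusted p = 0.0176, adjusted p = 1). The list of Langerhans cell markers that holds it had 2 of 4 measured (median 0.25, summed intensities 55.03 to 68.67 and 67.28 to 81.7). That of cDC2 also had 2 measured (of 7, median 0.31, 58.61 to 72.33 and 66.2 to 111.6). It holds Sirpa, which the sorted cells were also to lack. Sirpa was at 4.70, 4.64 and 4.68 without and 4.81, 4.92 and 4.75 with stimulation, also without overlap (0.15, 95% interval -0.20 to 0.51). Few markers were measured for NK cells (1 of 6), neutrophils (1 of 5), monocytes and macrophages (2 of 11) and erythroid cells (2 of 6). For plasmacytoid dendritic cells 4 of 6 were measured, for keratinocytes 5 of 6, and for fibroblasts and endothelium 5 of 8. The medians of these lists lay between -0.16 and 0.07, where those of NK cells and of neutrophils are 1 gene each. Of the markers of mature dendritic cells, 11 of 12 measured had positive differences (median 0.42). Their part in the differences given here was not tested. Bulk arrays cannot tell fewer cells of a type from less RNA per cell.

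Taken over the whole family, solute carrier RNA lay at nearly the same level in both groups, as did all genes. The median log2 difference (stimulated minus unstimulated) over the 233 members was 0.017, beside 0.005 over all genes. There were 126 members with positive and 107 with negative differences (100 with positive differences once each array was centred on its median, where the medians were -0.02 for members and -0.04 for all genes), and the middle 50% of members lay between -0.11 and 0.14 (-0.13 and 0.15 for all genes). At a limma adjusted p under 0.05 over all genes, 0 members were called in either direction, where 0.0156% of all genes were called higher and 0 lower. Unadjusted p-values under 0.05 were found for 5 members upward (2.15%) and 2 downward (0.858%), beside 2.07% and 1.42% of all genes. In 10 members (4.29%, beside 3.68% of all genes) each stimulated array exceeded each unstimulated one, and in 7 (3%, beside 3.46% of all genes) each was lower. These shares without overlap are near the background. The smallest adjusted p of a member was 0.379. Differences of at least 2-fold were seen for 5 members upward (2.15% of members, beside 0.603% of all genes) and 0 downward (beside 0.282% of all genes). Among the 5, Slc35a4 and Slc41a1 had overlapping groups, and without unstimulated replicate 2 their log2 differences fell to 0.21 and 0.52.

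The precision differed between members. The median 95% interval reached 0.48 to either side on the log2 scale, and for 190 members (81.5%, beside 77.9% of all genes) the whole interval lay within a 2-fold difference in either direction. For the other 43 members the intervals of this fit, which leaves the replicate numbers out, do not bound the difference to less than 2-fold. For 36 members at least 1 array had an intensity under 20. The deposited table holds no probe set with both group geometric means under 20.001, so a dim member can be in it through 1 group alone. Differences of such dim members can be understated, or overstated where only 1 group reached that level.

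**Figure D1:**
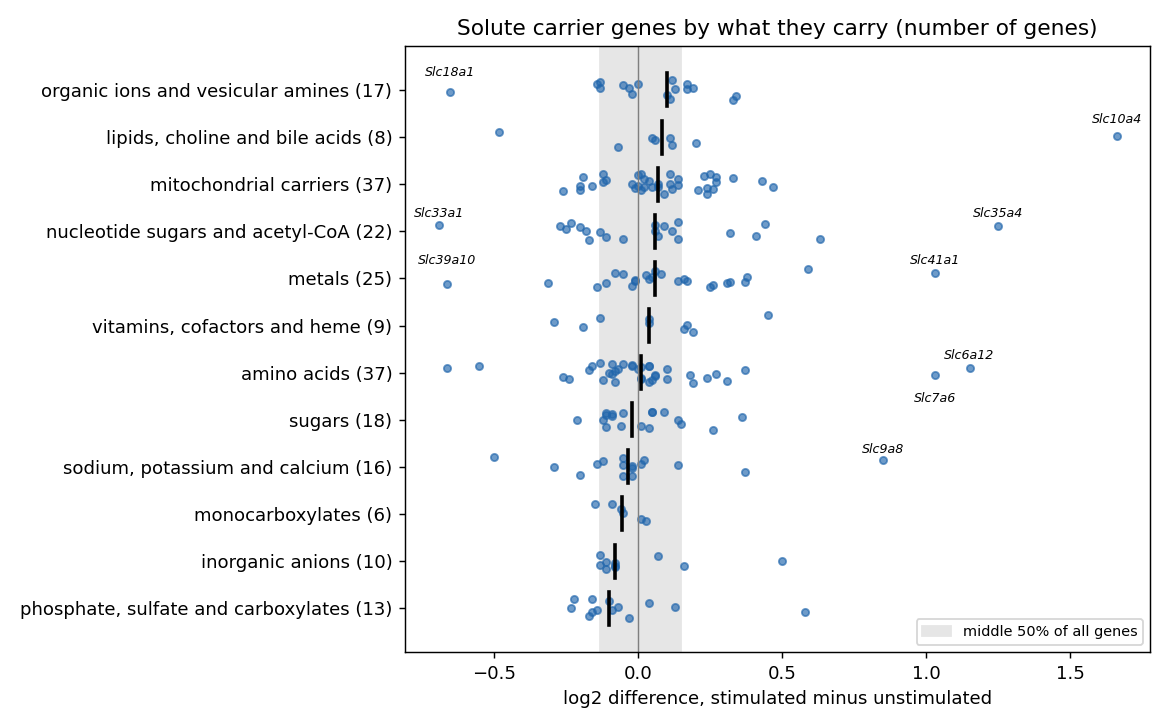
Log2 difference of each solute carrier gene (point), stimulated minus unstimulated, grouped by what the family carries, for classes with at least 5 genes. The black bar is the class median and the grey band holds the middle 50% of all genes (-0.13 to 0.15); every class median lies inside the band, and single genes such as Slc10a4 at 1.66 lie far outside it.

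The members with the largest statistics carry different substrates. Slc10a4 belongs to the bile acid transporter family by sequence but is known from synaptic vesicles, and its substrate is not settled. Its log2 intensity was 5.18, 4.30 and 4.56 in unstimulated and 5.97, 6.21 and 6.86 in stimulated samples. All stimulated values were above all unstimulated ones, and the lowest of the unstimulated values were near the bottom of the table. The log2 difference was 1.66 ± 0.31 (SE), a 3.17-fold ratio of intensities (95% interval 1.90 to 5.26, limma unadjusted p = 0.000977, adjusted p = 0.379). It kept its direction without any 1 array, with differences from 1.41 to 1.91. With array weights, which count arrays that differ from their group for less, its difference was 2.03 and passed (adjusted p = 0.0161).

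Slc6a12 encodes BGT1, which takes up betaine and GABA and is known for supplying betaine as an osmolyte under hypertonic stress. Its log2 intensity was 5.70, 5.44 and 5.89 without and 6.96, 6.34 and 7.17 with stimulation, so that no stimulated value was as low as any unstimulated one. The log2 difference was 1.15 ± 0.25 (SE), a 2.22-fold ratio (95% interval 1.47 to 3.35, limma unadjusted p = 0.0025, adjusted p = 0.652). Its neighbour on the chromosome, Slc6a13, which encodes another GABA transporter, differed by 0.27 (95% interval -0.28 to 0.82). Of the transporters of other organic osmolytes, Slc6a6, the taurine transporter, differed by -0.09 (95% interval -1.13 to 0.95), and Slc5a3, the myo-inositol transporter, by 0.36 (-0.43 to 1.14). Whether Slc6a12 differs from these was not tested.

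Slc7a6 encodes y+LAT2, a light chain that pairs with CD98 and exchanges cationic for neutral amino acids. It was at 5.75, 5.22 and 5.36 without and 6.69, 6.66 and 6.08 with stimulation. Every stimulated value was above every unstimulated one. The log2 difference was 1.03 ± 0.24 (SE), a 2.05-fold ratio (95% interval 1.39 to 3.02, limma unadjusted p = 0.00313, adjusted p = 0.733). The adjacent gene Slc7a6os, which is named after it, differed by 0.02, and Pla2g15 on the other side by 0.03.

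The sequences before the start sites of these 3 genes are shown because they lead the members upward and CD40 is known to signal through NF-kB. They are the 250 bases before the first listed start in RefSeq (GRCm38.p6, plus strand, matched by symbol), at chr5:73006654-73006903 for Slc10a4, chr6:121342324-121342573 for Slc6a12 and chr8:106168604-106168853 for Slc7a6. RefSeq lists 1, 5 and 2 starts for these genes. Capitals mark matches, on either strand, to the loose NF-kB pattern GGGNNNNNCC and to TGGAAA, the core shared by NFAT factors, which include the osmotic factor NFAT5. The patterns do not overlap each other in these windows.
Slc10a4: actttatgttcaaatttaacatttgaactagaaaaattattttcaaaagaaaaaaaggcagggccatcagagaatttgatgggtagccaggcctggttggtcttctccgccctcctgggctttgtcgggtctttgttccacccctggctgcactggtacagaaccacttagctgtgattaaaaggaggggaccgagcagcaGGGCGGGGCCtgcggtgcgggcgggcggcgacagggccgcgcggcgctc
Slc6a12: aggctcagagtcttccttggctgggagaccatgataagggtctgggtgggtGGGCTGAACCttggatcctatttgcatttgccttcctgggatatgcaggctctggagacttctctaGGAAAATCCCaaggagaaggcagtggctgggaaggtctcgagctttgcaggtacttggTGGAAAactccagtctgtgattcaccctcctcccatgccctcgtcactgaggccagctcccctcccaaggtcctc
Slc7a6: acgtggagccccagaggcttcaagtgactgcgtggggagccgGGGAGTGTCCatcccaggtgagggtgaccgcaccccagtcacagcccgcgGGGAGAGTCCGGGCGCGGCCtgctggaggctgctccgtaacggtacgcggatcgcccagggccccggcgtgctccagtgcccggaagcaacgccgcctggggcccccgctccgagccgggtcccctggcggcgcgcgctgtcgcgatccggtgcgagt

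The NF-kB pattern matched 1 time in the Slc10a4 window, 2 times in that of Slc6a12 and 3 times in that of Slc7a6, and 45.8% of all 32851 listed windows of this length hold it, as do 56.2% of the 370 windows of genes that match the symbol rule. TGGAAA matched in the Slc6a12 window alone, 75 bases before the start, and 18.6% of all windows hold it. The windows differ in base composition, with 54.4% G and C for Slc10a4, 55.6% for Slc6a12 and 74.0% for Slc7a6. A match describes the letters only and is no evidence of binding.

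Downward, Slc18a1 had the largest statistic. It encodes VMAT1, which loads monoamines into vesicles. Its log2 intensity was 6.33, 6.21 and 6.12 without and 5.6, 5.56 and 5.56 with stimulation, so the spread within each group was small beside the gap. The log2 difference was -0.65 ± 0.15 (SE, 95% interval -1.0 to -0.29, limma unadjusted p = 0.00359, adjusted p = 0.791). The differences without any 1 array ran from -0.70 to -0.59.

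Slc8a1, the plasma membrane sodium/calcium exchanger NCX1, was the next. It had 2 probe sets that both lay lower in every stimulated sample. The brighter one was at 4.38, 4.43 and 4.58 without and 3.79, 4.18 and 3.92 with stimulation, a difference of -0.50 ± 0.17 (SE, 95% interval -0.91 to -0.09, adjusted p = 1). The dimmer one was at 4.44, 4.32 and 4.23 without and 3.52, 3.31 and 3.15 with stimulation, a difference of -1.0 (limma unadjusted p = 0.000594, adjusted p = 0.307 when every probe set is tested on its own). Both probe sets are dim, and probe sets of 1 gene share their RNA and are not replicates. The deposited table holds no probe set with both group geometric means under 20.001. Both probe sets reach that level in the unstimulated group alone (mean log2 intensity 4.46 and 4.33, beside 3.96 and 3.33 with stimulation). Such a filter favours a difference of this direction, so the values and p-values of Slc8a1 are no independent support for one.

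**Figure D2:**
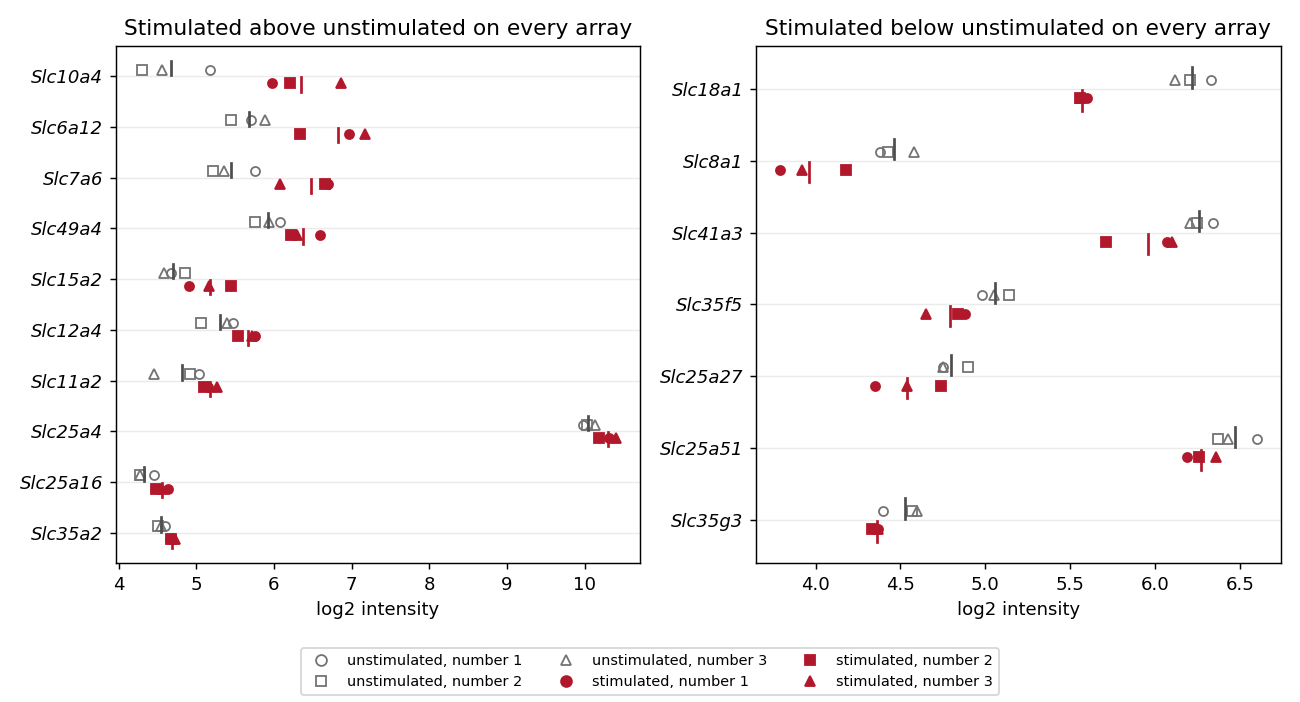
Log2 intensity on each array for the 10 members whose stimulated values all lie above the unstimulated ones (left) and the 7 whose values all lie below (right). Open grey symbols are unstimulated and filled red symbols stimulated arrays, the shape gives the replicate number and the short bars are group means. The gaps between groups are wide for Slc10a4, Slc6a12, Slc7a6 and Slc18a1 and narrow for most of the others.

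The other members without overlap had smaller differences. Upward they were Slc49a4 (0.45), a lysosomal membrane protein, Slc15a2 (0.47), the peptide transporter PEPT2, Slc12a4 (0.37), the potassium-chloride cotransporter KCC1, Slc11a2 (0.37), the iron importer DMT1, Slc25a4 (0.25), the adenine nucleotide translocator ANT1, Slc25a16 (0.23) and Slc35a2 (0.14), the UDP-galactose transporter of the Golgi. Downward they were Slc41a3 (-0.31), a magnesium transporter, Slc35f5 (-0.27), Slc25a27 (-0.26), the uncoupling protein UCP4, Slc25a51 (-0.20), the mitochondrial NAD carrier, and Slc35g3 (-0.17). None of these 12 passed over all genes, and the 95% intervals of Slc49a4 (0.02 to 0.87) and Slc15a2 (0.01 to 0.93) were the only ones of them that did not hold 0.

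The transporters most tied to glycolysis in activated dendritic cells showed no difference beyond the spread. The 9 measured members of family 2 had 4 positive and 5 negative differences (median -0.05, range -0.21 to 0.15), and for 8 the interval stayed within 2-fold. The wider class of sugar families also holds carriers of other substrates, such as the myo-inositol transporter Slc5a3, its highest member. Of the 18 members of this class, 9 had positive and 9 negative differences (median -0.02, or 0.002 after a further quantile normalisation, range -0.21 to 0.36). For 16 of them the interval stayed within 2-fold. Slc2a1, which encodes GLUT1, was at 7.25, 6.70 and 7.06 without and 7.04, 7.26 and 7.14 with stimulation. These values overlap, and the 95% interval of the log2 difference was -0.32 to 0.60. Slc2a3, which encodes GLUT3, differed by -0.11 (95% interval -0.53 to 0.31), and Slc2a4, which encodes the insulin-responsive GLUT4, by -0.21. Slc2a6, which encodes the lysosomal GLUT6, was at 9.20, 6.84 and 7.86 without and 9.11, 7.17 and 8.08 with stimulation. Its spread between arrays of 1 group was far larger than its group difference of 0.15 (95% interval -1.43 to 1.73), which is poorly bounded in this fit without the replicate numbers.

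Of the 6 monocarboxylate transporters measured, 2 had positive and 4 negative differences, all between -0.15 and 0.03, and all 6 intervals lay within 2-fold. Slc16a3, the lactate exporter MCT4, was at 6.27, 5.82 and 6.07 without and 5.82, 5.93 and 5.95 with stimulation, a difference of -0.15 (95% interval -0.57 to 0.26). Slc16a13 had the highest difference of the class at 0.03, which turned to -0.013 with arrays centred on their medians. The list of glycolytic enzymes gave a like picture: 15 of 20 were measured, 8 with positive and 7 with negative differences, the median was 0.02, and 0 passed over all genes. Ldha, the lactate dehydrogenase subunit with the largest statistic there, differed by 0.40 (95% interval -0.35 to 1.15).

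Slc6a12 and Slc7a6 belong to the amino acid families. Over the 37 members of the class, 19 had positive and 18 negative differences (median 0.01, or -0.03 with arrays centred, range -0.66 to 1.15), and 0 passed. The heavy chain Slc3a2 was at 10.83, 8.93 and 9.79 without and 11.07, 9.35 and 10.25 with stimulation. The groups overlapped, since each group spans well over 1 on this scale, and the difference of 0.37 had a 95% interval of -0.96 to 1.71; without unstimulated replicate 2 it was -0.088 and without stimulated replicate 1 it was -0.052. Within each replicate number the stimulated value was the higher, by 0.24, 0.42 and 0.45. The same held for 39 of the 233 members and 2073 of all 12780 genes, and the numbers were not taken to pair the samples.

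Among its light chains, Slc7a5, which encodes the leucine transporter LAT1, was at 5.71, 5.31 and 5.90 without and 6.26, 5.41 and 6.19 with stimulation, a difference of 0.31 (95% interval -0.35 to 0.97). Slc7a11, which encodes the cystine transporter xCT that supplies glutathione synthesis, was the lowest of the class. Its values were 6.35, 5.85 and 7.37 without and 5.82, 5.73 and 6.03 with stimulation, and the difference of -0.66 (95% interval -1.53 to 0.20) rested in large part on the high value of unstimulated replicate 3. Without that array it was -0.24. Of the glutamine transporters, Slc1a5 differed by -0.09 (95% interval -0.88 to 0.70), Slc38a2 by -0.08 (-0.55 to 0.40) and Slc38a1 by -0.55 (-1.19 to 0.08).

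Of the 8 members of family 38, which carries small neutral amino acids with sodium, 7 had negative differences, with a median of -0.10 and 0 called, and 7 of 8 were negative after quantile normalisation or after centring as well (medians -0.143 and -0.139). Other settings turned members of the family: Slc38a9 was at 0.047 with array weights, and Slc38a2 at 0.106 without replicate 3 in both groups. The largest was that of Slc38a1, at 7.43, 6.54 and 6.83 without and 6.66, 6.12 and 6.36 with stimulation. Slc38a9, the lysosomal arginine sensor of the growth kinase mTORC1, differed by -0.07 and Slc36a1, a lysosomal amino acid exporter, by 0.18. Slc38a1 was named after its value was seen. Beside the 7 of 8 in family 38, 6258 of all 12780 genes had negative differences. Other families also leaned to 1 side, with 5 of 6 negative in family 4, 4 of 5 negative in family 9 and 25 of 37 positive in family 25. In the list of mTORC1 amino acid sensing genes, 23 were measured, 15 of them with positive differences (median 0.13), 0 passed, and the largest statistic was that of Rragd (-0.30, 95% interval -0.85 to 0.25), which encodes a GTPase that recruits mTORC1 to lysosomes. In the amino acid starvation list, 7 of 14 had positive and 7 negative differences (median 0.00), 0 passed, and the largest statistic was that of Chac1 (-0.34, 95% interval -0.75 to 0.08), which encodes an enzyme that degrades glutathione.

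**Figure D3:**
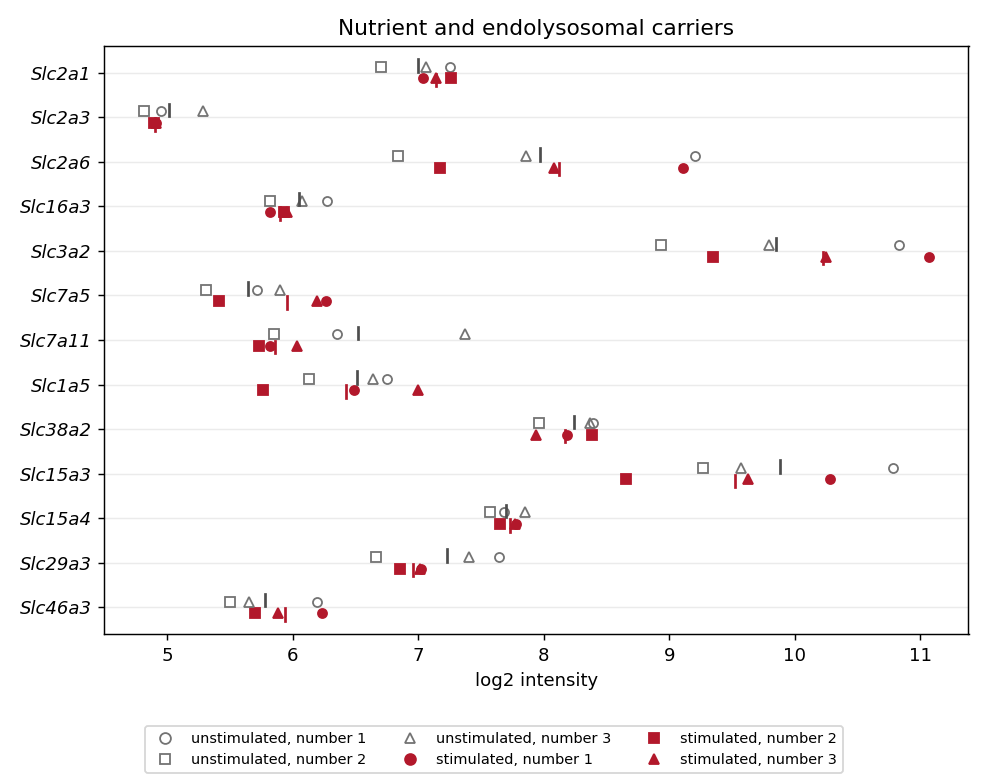
Log2 intensity on each array for 13 carriers of sugars, lactate, amino acids, peptides and nucleosides. Symbols as in the plot of members without overlap; in every row the unstimulated and stimulated values overlap, and Slc3a2, Slc2a6 and Slc15a3 spread widely within both groups, with arrays numbered 1 highest and those numbered 2 lowest.

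Of the 23 carriers listed for lysosomes and endosomes 20 were measured, with 10 positive and 10 negative differences, a median of -0.01 and 0 called. In 2 of them, Slc49a4 and Slc11a2, all stimulated values were the higher, and the largest statistic was that of Slc49a4 (0.45, 95% interval 0.02 to 0.87, limma unadjusted p = 0.0433, adjusted p = 1). Slc15a3, a histidine and peptide carrier of endolysosomes linked to innate sensing, was at 10.78, 9.27 and 9.57 without and 10.28, 8.65 and 9.63 with stimulation. Its values overlapped, and the difference was -0.36 (95% interval -1.56 to 0.85). Slc15a4, the related carrier needed for endosomal Toll-like receptor signalling in plasmacytoid dendritic cells, was at 7.68, 7.57 and 7.85 without and 7.78, 7.65 and 7.77 with stimulation. This was among the tightly bounded members, with a difference of 0.03 (95% interval -0.35 to 0.41) that became -0.034 after quantile normalisation and -0.009 after centring.

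Slc29a3, the lysosomal nucleoside transporter ENT3, differed by -0.27 (95% interval -0.89 to 0.35), Slc17a5, the lysosomal sialic acid exporter, by -0.16 (-0.62 to 0.30), and Slc46a3, a lysosomal carrier, by 0.16 (-0.41 to 0.72). Slc19a1, the reduced folate carrier that also imports cyclic dinucleotides, differed by 0.04 (-0.89 to 0.97), and by -0.001 with arrays centred. Its stimulated replicate 2 stood at 7.30 beside 5.85 and 5.80 in the other two stimulated samples, without it the difference was -0.45, and a second, dimmer probe set of the gene differed by -0.19.

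At the brightest probe set of each gene, all 37 mitochondrial carriers of family 25 differed by less than 0.5 on the log2 scale, from -0.26 to 0.47. There were 25 with positive and 12 with negative differences (median 0.07), and 30 had intervals within 2-fold. Slc25a4 was at 9.98, 10.03 and 10.13 without and 10.31, 10.18 and 10.41 with stimulation, the 2 groups being apart by a small step (0.25, 95% interval -0.11 to 0.62). Slc25a5, which encodes the related translocator ANT2, differed by -0.12 (95% interval -0.63 to 0.39), and its other 2 probe sets by -0.11 and -0.06. Slc25a36 differed by 0.11, and its second, dimmer probe set by 0.70 ± 0.47 (SE), outside the range of the brightest probe sets. Slc25a20, the carnitine and acylcarnitine carrier of fatty acid oxidation, had the highest difference of the family at the brightest probe sets, 0.47 (95% interval -0.17 to 1.11). Slc25a1, the citrate exporter that supplies fatty acid synthesis, differed by 0.33 with a wide interval (-1.10 to 1.77).

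In the nucleotide sugar and acetyl-CoA class, which feeds glycosylation in the Golgi and endoplasmic reticulum, 12 of 22 members had positive and 10 negative differences (median 0.06, or -0.004 after quantile normalisation). Slc35a4 had the highest difference, 1.25, with values of 7.0, 3.78 and 6.79 without and 7.01, 6.55 and 7.74 with stimulation. The groups overlap, and unstimulated replicate 2 was far below the others. Without that array the difference was 0.21, and a second probe set of the gene differed by 0.00. Slc33a1, which brings acetyl-CoA into the endoplasmic reticulum, had the lowest difference of the class at -0.69 (95% interval -1.62 to 0.24, from -1.108 without stimulated replicate 1 to -0.329 without stimulated replicate 3), and Slc35b1, the ATP transporter of the endoplasmic reticulum, differed by 0.07 (-0.007 after quantile normalisation).

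Among the 25 metal carriers, 16 had positive and 9 negative differences (median 0.06). Slc41a1, a magnesium transporter, was at 9.18, 7.17 and 8.18 without and 9.91, 8.44 and 9.25 with stimulation. The groups overlapped. Each stimulated value lay above the unstimulated value of the same number, as in 39 of the 233 members and 2073 of all 12780 genes. The difference was 1.03, a 2.04-fold ratio (95% interval 0.826 to 5.03), and ran from 0.52 without unstimulated replicate 2 to 1.53 without unstimulated replicate 1. Of the 12 zinc importers of family 39, 8 had positive differences (median 0.10). Slc39a10, the zinc importer ZIP10, had the lowest difference of the class, with 6.03, 5.27 and 5.56 without and 5.49, 4.58 and 4.81 with stimulation (-0.66, 95% interval -1.36 to 0.04). Slc39a14, the zinc and iron importer ZIP14, differed by 0.17 and Slc30a1, the zinc exporter ZnT1, by 0.16. Of the 12 measured genes that store or regulate zinc and iron, 5 had positive and 7 negative differences (median -0.04) and 0 passed. The largest statistic among them was that of Fbxl5, the iron-sensing ubiquitin ligase subunit, at -0.42 (95% interval -1.27 to 0.42).

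For sodium, potassium and calcium, 5 of 16 members had positive and 11 negative differences (median -0.04), and for 15 the interval lay within 2-fold. Slc9a8, the sodium/proton exchanger NHE8 of Golgi and endosomes, had the highest difference, with 8.29, 6.43 and 7.66 without and 8.29, 8.28 and 8.36 with stimulation. The stimulated samples lay close together and the unstimulated ones spread, which gave 0.85 (95% interval -0.16 to 1.87). Without unstimulated replicate 2 it was 0.34. Among 10 inorganic anion carriers, 3 had positive and 7 negative differences (median -0.08), from Slc4a9 at -0.13 to Slc4a2, the chloride/bicarbonate exchanger AE2, at 0.50 (95% interval -0.52 to 1.52). Of 13 phosphate, sulfate and carboxylate carriers, 10 had negative differences (median -0.10), from Slc13a3, the carboxylate importer NaDC3, at -0.23 to Slc37a1, a glucose-6-phosphate exchanger of the endoplasmic reticulum, at 0.58 (95% interval -0.05 to 1.21).

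The remaining classes were small. Of 8 lipid, choline and bile acid carriers, 6 had positive differences (median 0.08), with Slc10a4 highest and Slc44a5, a choline-like transporter, lowest at -0.48 (95% interval -1.09 to 0.13). Of 17 carriers of organic ions and vesicular amines, 10 had positive and 7 negative differences (median 0.10), with Slc22a4, the ergothioneine transporter, highest at 0.34 (95% interval -0.79 to 1.46, and -0.081 without stimulated replicate 1) and Slc18a1 lowest. Of 9 vitamin, cofactor and heme carriers, 6 had positive differences (median 0.04, or -0.001 with arrays centred), with Slc49a4 highest and Slc23a1, the ascorbate transporter SVCT1, lowest at -0.29 (95% interval -0.76 to 0.18). The mean log2 intensity of Slc23a1 was 4.43 without and 4.14 with stimulation. Like Slc8a1, it thus reaches an intensity of 20.001 in the unstimulated group alone, and such a filter favours a difference of this direction. In the list of proteins that pair with or act beside solute carriers, 9 of 13 measured genes had positive and 4 negative differences (median 0.06) and 0 passed. The largest statistic there was that of the organic anion transporter gene Slco3a1, at 7.52, 6.69 and 6.96 without and 8.19, 7.30 and 8.09 with stimulation (0.80, 95% interval 0.07 to 1.54, adjusted p = 1).

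The largest spread among the members ran between arrays of the same group. In 18 members (7.73%) the array numbered 1 was at least 1 log2 unit above the array numbered 2 in both groups, and in 0 it was at least that far below, beside 6.16% and 0.634% of all genes. Slc27a3, a fatty acid transport protein, was at 10.86, 8.07 and 9.22 without and 10.58, 7.93 and 9.82 with stimulation. Numbers 1 and 2 thus differed by 2.79 and 2.65 within the groups, while the group difference was 0.06. Slc25a11, the mitochondrial oxoglutarate carrier, differed between the same arrays by 2.08 and 2.63, and Slc4a8, a sodium-driven bicarbonate exchanger, by 1.82 and 2.19. Slc3a2 (1.90 and 1.72), Slc2a6 (2.36 and 1.94), Slc15a3 (1.51 and 1.63), Slc6a6 (1.40 and 1.24), Slc25a1 (1.49 and 2.16) and Slc41a1 (2.02 and 1.47) were in the same set. Slc27a3, Slc25a11 and Slc4a8 were chosen after their values were seen. Across all 233 members, deviations from the group mean of arrays with the same number had r of 0.736, 0.662 and 0.318 for numbers 1, 2 and 3. The interquartile range of all genes was also widest on the arrays numbered 1 (2.19 and 2.31) and narrowest on those numbered 2 (1.74 and 1.75), and its part in these spreads was not tested.

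**Figure D4:**
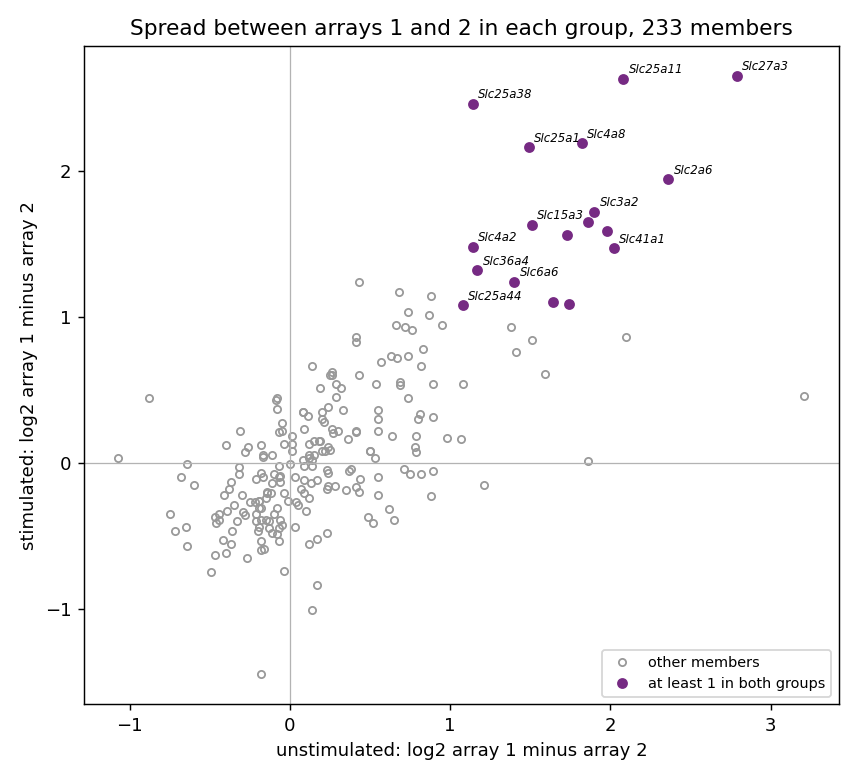
For each of the 233 members, the log2 intensity of array 1 minus array 2 in the unstimulated (x axis) and stimulated group (y axis). The 18 filled points are at least 1 in both groups and most are labelled; Slc27a3 lies farthest out at 2.79 and 2.65, and no member lies at or below -1 in both.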

How the data were processed

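The authors summarised the arrays with RMA in Affymetrix Expression Console, per the submitters' processing notes; no version or setting is stated there. RMA as generally run corrects background, normalises quantiles and summarises probes per probe set. The deposited table holds an intensity for 17551 probe sets on 6 arrays, on a linear scale, and log2 was taken here. No probe set had both group geometric means under 20.001. For genes with several probe sets the one with the highest mean was used (9 of the 233 members have several, and in 1 of them, Slc19a1, they differ in sign). Another 2 probe sets carry a member name beside other symbols and were not used. The test was that of limma (version 3.58.1, R 4.3.3; lmFit and eBayes without covariates), run over 12780 genes with Benjamini-Hochberg adjustment. All tests are two-sided, and the procedure was tested on simulated data. The classes rest on textbook substrates of each family; 7 genes (5 named after a carrier, and Slc66a1 and Slc66a2, 2 genes of a family left out of the class table) were put in no class. Members and lists were chosen with earlier results of these data known. Named are members without overlap between groups (up to 12 each way), the highest and lowest of each class of at least 5, a fixed list of nutrient and endolysosomal carriers, and the gene with the largest statistic in each further list. Alternatives were a robust variance trend, leaving out dim genes, quantile normalisation, centring, array weights, the replicate block, the interquartile range as a covariate, other probe set rules, other thresholds, no shared variance, leaving out each array and, added after seeing the data, both arrays of a number. Matplotlib 3.10.9 (Python 3.11.15) drew the figures.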

Additional observations from a re-analysis of the deposited data

How the results depend on the processing

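Over 19 settings the 56 named members were refitted 1049 times. The direction was kept in every refit of 37 members, Slc10a4, Slc6a12, Slc7a6, Slc18a1 and Slc8a1 among them, and turned in 55 refits of 19 members. The threshold was passed in 2 refits: Slc10a4 with array weights (2.03, adjusted p = 0.0161, over its alternatives up to 1) and Slc6a12 with the replicate block (1.15, adjusted p = 0.0454). The number of members called was 1 higher under each of these settings, and 0 under the others.

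Over all genes, 2 were called higher and 0 lower. The counts were 5 and 1 after quantile normalisation, 28 and 18 with array weights, 11 and 4 with the interquartile range as covariate, and 3 and 1 with centred arrays. There were 0 called higher at an adjusted p under 0.01, without shared variance, without any 1 array (range 0 to 0), and without replicate 1, 2 or 3 in both groups.

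With the replicate number as a block, 30 genes were called higher and 8 lower. The SE with the block was 0.16 for Slc2a6 (0.67 without it), 0.15 for Slc3a2 (0.57) and 0.17 for Slc41a1 (0.55). Deviations of same-numbered samples correlated with r of 0.727, 0.594 and 0.0611 for numbers 1, 2 and 3; each sample but unstimulated 3 correlated best with its own number. The numbers were not taken to pair the samples, and the block changed no other member's call.

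Directions turned as follows. Quantile normalisation gave -0.034 for Slc15a4 and -0.007 for Slc35b1. Centring gave -0.009 for Slc15a4, -0.013 for Slc16a13 and -0.001 for Slc19a1. Array weights gave -0.064 for Slc15a4, -0.295 for Slc16a13, -0.214 for Slc19a1, 0.126 for Slc1a5, -0.081 for Slc30a1 and 0.047 for Slc38a9. The interquartile range as covariate gave -0.188 for Slc2a6 and -0.012 for Slc35b1, and the mean of probe sets -0.075 for Slc19a1. Without replicate 1 in both groups Slc15a4 was 0, Slc16a13 -0.101 and Slc25a5 0.012. Without replicate 2 in both groups Slc16a13 was -0.078, Slc19a1 -0.395, Slc1a5 0.048, Slc2a1 -0.07 and Slc30a1 -0.097. Without replicate 3 in both groups Slc25a1 was -0.035, Slc2a3 0.015, Slc35b1 -0.045 and Slc38a2 0.106.

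Leaving out 1 array at a time gave ranges that cross 0: -0.737 to 0.096 for Slc15a3, -0.035 to 0.108 for Slc15a4, -0.15 to 0.17 for Slc16a13, -0.247 to 0.012 for Slc17a5, -0.45 to 0.298 for Slc19a1, -0.38 to 0.238 for Slc1a5, -0.081 to 0.725 for Slc22a4, -0.108 to 0.971 for Slc25a1, -0.242 to 0.08 for Slc25a5 and -0.013 to 0.262 for Slc2a1. It gave -0.211 to 0.02 for Slc2a3, -0.409 to 0.77 for Slc2a6, -0.047 to 0.325 for Slc30a1, -0.173 to 0.26 for Slc35b1, -0.215 to 0.04 for Slc38a2, -0.295 to 0.188 for Slc38a9, -0.088 to 0.863 for Slc3a2, -0.291 to 0.033 for Slc4a9 and -0.46 to 0.31 for Slc6a6. The causes were not tested. The number of arrays limits the precision, and 36 members have an array under an intensity of 20.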
